A study of Mus musculus with 12 samples.

Results

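The heat shock and chaperone genes of the left ventricle were followed in adult mice from which Nkx2-5, a homeobox transcription factor of heart muscle, had been deleted before birth. The members are all array probes whose gene name begins with Hspa, Hspb, Hspd, Hspe, Hsph, Hsp90, Dnaja, Dnajb or Dnajc, together with Cryab. They numbered 112 of 55681 probes and 74 of 34844 gene names. No measured value entered the rule. RNA came from 12 mice aged 6 months, 4 per group and 1 mouse per array. The methods describe all 3 groups as carrying floxed Nkx2-5 alleles. In the mutants a tamoxifen-inducible Cre (Cx40-creERT2) stood at the Cx40 locus, which is active in trabecular myocardium, the conduction system and arterial endothelium, so that the cells that lose Nkx2-5 depend on where the locus is active when tamoxifen is given. In the group called Nkx2-5Δtrab in the labels, here TrbE10, tamoxifen was given at E10.5 and E11.5 (embryonic days), when trabeculae form. In Nkx2-5Δcomp, here TrbE14, it was given at E13.5 and E14.5, when trabeculae compact. The labels call the controls non-injected, whereas the methods describe them as littermates of the mutants without Cre. Newborns of treated mothers were delivered by caesarean section and raised by CD1 foster mothers. The left ventricle was sampled without the septum.

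Molecular chaperones bind unfolded or partly folded proteins and keep them from clumping. The HSP70 proteins hold a client in cycles of ATP hydrolysis. J-domain proteins (DNAJA, DNAJB and DNAJC) bring clients and start the cycle, and exchange factors such as the HSP110 proteins end it by releasing ADP. HSP90 acts on clients that are already near their final shape, the chaperonin formed by Hspd1 and Hspe1 folds proteins inside mitochondria, and small heat shock proteins hold damaged clients without ATP. Many of these genes are switched on together by heat shock factor 1 (HSF1) when proteins unfold. Cardiac muscle makes several small heat shock proteins in large amounts, among them Cryab, which binds desmin and titin, and Hspb7, which binds filamin C and actin.

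Of the members, 93 probes of 65 genes exceeded the background clearly on 3 or 4 arrays of some group, as did 24593 probes of 18021 genes over the whole array. All values below are log2 signals after quantile normalization, and differences are log2 differences. For a gene with several probes, the one with the highest mean signal is given. Nkx2-5 itself was at 11.95, 12.23, 11.93 and 11.89 on the control arrays. It was at 11.27, 11.67, 11.21 and 11.22 in TrbE10, and at 11.12, 11.57, 11.32 and 11.63 in TrbE14. Every mutant array thus lay below every control array, with limma differences of -0.66 (adjusted p = 0.0459) and -0.59 (adjusted p = 0.106). The TrbE10 difference kept its size over 21 alternative settings (-0.76 to -0.58), but its call was lost in 12 of them. The 10 cardiomyocyte markers had a summed signal of 20.34 to 20.42 in control, 20.41 to 20.47 in TrbE10 and 20.31 to 20.42 in TrbE14. Their mean log2 signal, in which each gene counts alike, was 16.40 to 16.52, 16.35 to 16.44 and 16.38 to 16.49. None was called. In TrbE10 6 were negative, 2 of them wholly below control, and in TrbE14 5 were negative, 1 of them wholly below. All 4 TrbE10 arrays lay on a slide of their own, so that slide and group cannot be told apart there, whereas control and TrbE14 shared the other slide. Control replicate 1 stood apart from the other controls in several members. Differences of members' main probes printed below that are over 0.1 in size are also given without it where it moved them by more than 1.5 times. Second probes are given with all arrays only.

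No member gene passed the test in any comparison. With limma and a threshold of 0.05 on the adjusted p, 0 of 65 member genes were called in TrbE10 against control, where 2.15% of all 18021 genes were called. In TrbE14 against control 0 of 65 were called, against 0.76% of all genes. Between TrbE10 and TrbE14 0 of 65 were called, against 0% of all genes, and 0 of 65 were called over the 3 groups by the F test, against 1.37%. SAM (significance analysis of microarrays), the test named in the study's methods, also called 0 member genes in each comparison at a false discovery rate of 5%, and 483, 299 and 2 genes in all. At an unadjusted p under 0.05, limma found 5 members with a negative difference and 0 with a positive one in TrbE10, 6 and 1 in TrbE14, and 1 and 0 between the mutants. In TrbE10 that is 7.69% of members negative, against 9% of all genes negative and 7.8% positive. In TrbE14 it is 9.23% negative and 1.54% positive, against 7.4% and 6.52% of all genes, and between the mutants 1.54% negative, against 3.04% and 2.92%. The members' count depended on the processing. In TrbE10 it was 14 with 75th percentile scaling, 15 without TrbE10 replicate 2 and 2 without control replicate 1. The number of all genes called at the adjusted p moved too, from 387 to 461, 655 and 216 in turn. The share of all genes at an unadjusted p under 0.05 was not counted in these settings. In TrbE14 the members' total of 7 ranged from 4 to 12. The lowest adjusted p of any gene's main probe was 0.103 in TrbE10, for Dnajb5, and 0.191 in TrbE14, for Hspa4l.

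The differences were small and more often negative than positive. In TrbE10 47 of 65 members (72.3%) had a negative difference, and the median was -0.10, against 54.8% and -0.02 over all genes. In TrbE14 44 of 65 (67.7%) were negative with a median of -0.07, against 55.9% and -0.03 over all genes. Both comparisons use the same control arrays. Without control replicate 1, 44 and 38 members were negative, with medians of -0.091 in TrbE10 and -0.038 in TrbE14. The medians of all genes were then -0.024 and -0.027, so that in TrbE14 the members lay close to all genes. The 95% confidence interval of the difference lay within 1 log2 unit of 0 for 63 genes in TrbE10 and 61 in TrbE14, and within 0.5 for 49 and 48. The data thus bound most members to less than a doubling or halving, without showing that they were equal.

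**Figure D1:**
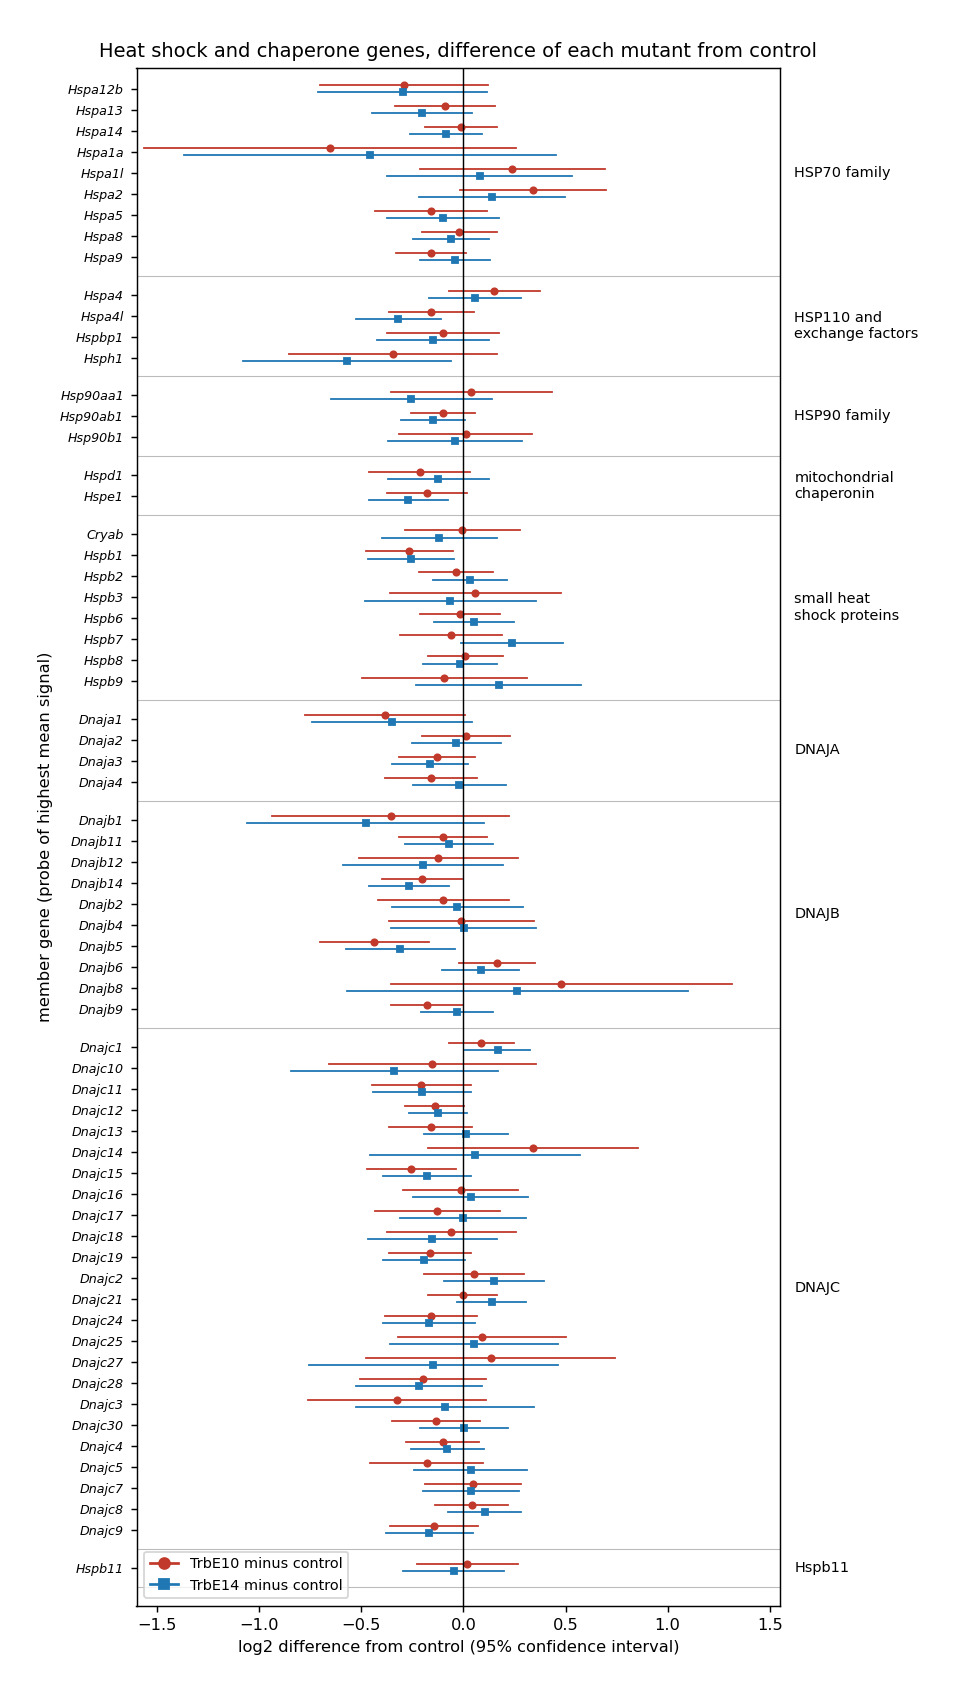
Log2 difference of TrbE10 (circles) and TrbE14 (squares) from control for each of the 65 measured member genes, grouped by family, with bars for the 95% confidence interval of the limma fit (n = 4 arrays per group). Most points lie left of 0 and most intervals cross it, the widest being that of Hspa1a.

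In TrbE10 4 members (Dnajb5, Dnajb1, Hspb1 and Dnajb9) had all mutant arrays below all control arrays, which is 6.15% of members against 5.63% of all genes, and 0 had them all above, against 4.94%. In TrbE14 7 members lay wholly below control (Hspa4l, Hspe1, Dnajb14, Dnajc19, Dnajc15, Hsp90ab1 and Dnajc12), which is 10.8% against 5.43%. Hspb7 and Dnajc1 lay wholly above control in TrbE14, where 4.65% of all genes did. By its main probe no member lay on one side of control in both mutants (0 of 65), against 2.25% of all genes above and 2.07% below in both. A second, dim probe of Dnaja1 did lie wholly below control in both mutants.

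Among small heat shock proteins, the largest differences were those of Hspb1, negative in both mutants, and Hspb7, positive in TrbE14. Cryab, the αB-crystallin of the sarcomere's Z-disc, was at 17.32, 17.34, 17.48 and 17.34 in control. It was at 17.14, 17.26, 17.62 and 17.44 in TrbE10 and at 17.16, 16.98, 17.41 and 17.45 in TrbE14. The TrbE10 arrays lay on both sides of the controls, 2 of the TrbE14 arrays lay below them and none above, and their SD was 0.21 and 0.22 against 0.07 in control. The differences were 0.00 ± 0.13 (SE; 95% interval -0.29 to 0.28) and -0.12 ± 0.13 (-0.40 to 0.16). A second Cryab probe gave -0.13 and -0.14. Its neighbour Hspb2 differed by -0.04 and 0.03, Hspb6 (a phosphoprotein of muscle) by -0.02 and 0.05, and Hspb8, a partner of the cochaperone Bag3, by 0.01 and -0.02, each with an SE of 0.08 to 0.09.

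Hspb7 was at 14.05, 14.19, 14.37 and 14.36 in control and at 14.05, 14.00, 14.38 and 14.32 in TrbE10. In TrbE14 it was at 14.37, 14.41, 14.55 and 14.60. All TrbE14 arrays lay above the controls, the lowest only just, while TrbE10 overlapped with both. The differences from control were -0.06 ± 0.11 (adjusted p = 0.838) and 0.24 ± 0.11 (adjusted p = 0.389). The exact two-sided permutation test of TrbE14 against control gave 0.0286, the smallest p that 4 arrays against 4 allow. Any gene whose 4 arrays lie wholly on one side of the controls gets this value. Between the mutants Hspb7 differed by -0.30 ± 0.11, the only member at an unadjusted p under 0.05 there (limma, 0.0243, adjusted 0.801).

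Hspb1, the small heat shock protein that protects actin filaments, was at 15.60, 15.49, 15.25 and 15.34 in control. It was at 15.07, 15.12, 15.20 and 15.23 in TrbE10, below every control, and at 15.20, 15.07, 15.33 and 15.07 in TrbE14, where 1 array reached the controls. The differences were -0.26 ± 0.10 and -0.25 ± 0.10, or 0.833-fold and 0.838-fold of control. The adjusted p was 0.207 and 0.29.

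Among the heat-inducible genes, Hspa1a and Hsph1 varied most between control arrays (SD 1.07 and 0.44), while Cryab, Hsp90ab1, Hspa4l and Hspe1 were steady (SD 0.07 to 0.08). The inducible HSP70 was read by a single probe named Hspa1a, at chr17:35107117-35107176 of mm9. It lists transcripts of both Hspa1a and its near-identical neighbour Hspa1b, no probe bears the name Hspa1b, and so the 2 genes cannot be told apart. The sequence of this probe, which stands for both genes, is given 5′ to 3′ as the array file has it.
Hspa1a probe: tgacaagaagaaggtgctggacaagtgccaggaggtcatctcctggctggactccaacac
Its signal was 8.61, 6.77, 6.30 and 6.44 in control. It was 6.35, 6.19, 6.48 and 6.49 in TrbE10 and 6.997, 6.27, 6.45 and 6.58 in TrbE14. Control replicate 1 alone exceeded 6.997, and the groups otherwise overlapped. The differences were -0.65 ± 0.42 (adjusted p = 0.469) and -0.46 ± 0.42 (adjusted p = 0.634). Without control replicate 1 they were -0.13 and 0.07, so that the sign in TrbE14 turned.

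Hsph1, an HSP110 exchange factor, was at 12.26, 11.59, 11.23 and 11.48 in control. It was at 11.31, 11.19, 11.74 and 10.95 in TrbE10 and at 11.30, 11.02, 11.26 and 10.71 in TrbE14. Control replicate 1 was again the highest, and the groups overlapped. The differences were -0.34 ± 0.23 and -0.57 ± 0.23 (adjusted p = 0.496 and 0.326), the second being the most negative of all members in TrbE14. A second probe gave -0.43 and -0.69. Without control replicate 1 the main probe gave -0.14 and -0.36. Dnaja1, the J protein that serves cytosolic HSP70, was at 13.14, 12.56, 12.29 and 12.46 in control and differed by -0.38 ± 0.18 and -0.35 ± 0.18 (adjusted p = 0.317 and 0.411). Leaving out control replicate 1 gave -0.21 and -0.17. A second Dnaja1 probe gave -0.54 and -0.74. Dnajb1, the main J protein induced by heat, was at 11.69, 11.74, 11.62 and 11.96 in control. It was at 11.62, 11.60, 11.42 and 10.95 in TrbE10, just below the controls. In TrbE14 it was spread from 10.70 to 12.12, so that 1 array exceeded all controls. Its differences were -0.36 ± 0.26 and -0.48 ± 0.26 (adjusted p = 0.54 and 0.445).

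The list of heat-inducible HSF1 targets held 13 measured members. They are Cryab, Dnaja1, Dnajb1, Dnajb4, Hsp90aa1, Hsp90ab1, Hspa1a, Hspa4l, Hspa8, Hspb1, Hspd1, Hspe1 and Hsph1. Of these, 12 of 13 had a negative difference in each mutant, with medians of -0.18 in TrbE10 and -0.25 in TrbE14. Over all genes 54.8% and 55.9% were negative. The exceptions were Hsp90aa1 in TrbE10 (0.04) and Dnajb4 in TrbE14 (0.00). None was called, and 1 and 4 had an unadjusted p under 0.05. Without control replicate 1, 10 and 11 were negative and the medians were -0.13 and -0.13. Control replicate 1 had the highest signal of all 12 arrays in 10 of these 13 genes and in 22 of the 65 members, against 11.1% of all genes. The mean of the 13 genes was 12.96 on that array and lay between 12.30 and 12.59 on the other 11. Control replicate 1 also had the lowest signal of Dbp, an output gene of the circadian clock, at 11.21. TrbE10 replicate 2 and TrbE14 replicate 2 came next for Dbp at 11.81 and 11.98, and their Hspa1a signals were 6.19 and 6.27. It was the only control with signal of Y-linked genes, which 2 TrbE10 and 3 TrbE14 arrays also had, with Hspa1a at 6.19 to 6.58. With either Dbp or the presence of Y-linked signal (yes or no) as a covariate, 0 members were called in each comparison. The fit without them also called 0. With Y-linked presence 51 and 48 of the 65 members were negative, and with Dbp 47 and 44. The members' medians were -0.11 and -0.10 with Y-linked presence, where all genes had -0.02 and -0.03. With Dbp they were -0.10 and -0.07, against -0.02 and -0.03. The part of either in the signals of control replicate 1 was not tested.

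**Figure D2:**
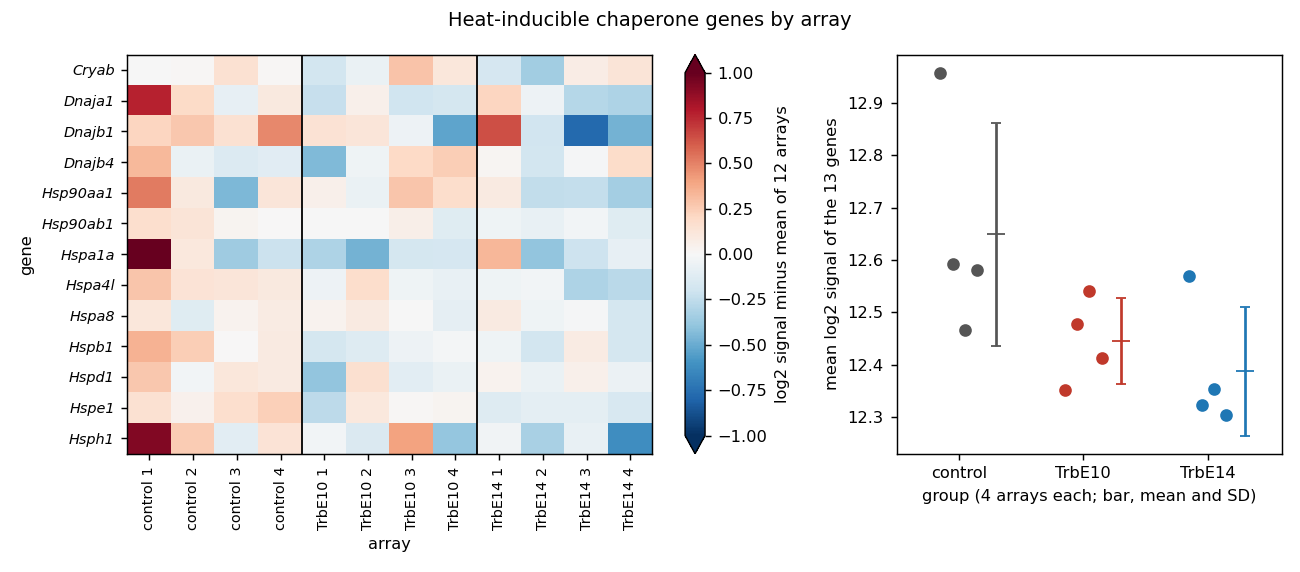
Left, log2 signal of the 13 heat-inducible members on each array as the difference from the gene's mean over 12 arrays; right, their mean log2 signal per array, with mean and SD of each group of 4. Control replicate 1 is the reddest column and the highest point at 12.96, above the other 11 arrays at 12.30 to 12.59.

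HSF1 acts through heat shock elements, inverted repeats of the pentamer NGAAN. The letters GAANNTTC and TTCNNGAA, which are their own reverse complements and so cover both strands, were searched in the 250 bases before the start of each gene in RefSeq promoter windows (build GRCm38.p6). Of the 74 member names 59 had a window. The motif was found in 13 of these (22%), in 7 of 9 heat-inducible members with a window (77.8%), in 6 of 50 other members (12%), and in 14.55% of all 27025 genes of the table. Of the 7 heat-inducible members that hold the motif, stretches of 5 are shown 5′ to 3′ on the gene's strand as examples of it. The windows of Dnajb1 and Hspa4l, whose differences were among the more negative ones, do not hold these letters and are not shown. Capitals mark the motif.
Hspa1a (chr17:34972207-34972306, minus strand): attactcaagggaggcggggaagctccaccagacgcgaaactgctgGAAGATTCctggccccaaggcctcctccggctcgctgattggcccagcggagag
Hsph1 (chr5:149636316-149636415, minus strand): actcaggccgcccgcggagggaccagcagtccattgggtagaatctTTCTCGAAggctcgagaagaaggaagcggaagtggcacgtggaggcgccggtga
Hspb1 (chr5:135887766-135887865, plus strand): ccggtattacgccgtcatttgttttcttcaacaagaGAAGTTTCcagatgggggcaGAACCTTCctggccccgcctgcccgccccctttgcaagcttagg
Dnaja1 (chr4:40722298-40722397, plus strand): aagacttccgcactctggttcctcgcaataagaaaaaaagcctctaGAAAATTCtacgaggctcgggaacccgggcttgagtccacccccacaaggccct
Hspe1 (chr1:55088053-55088082, plus strand): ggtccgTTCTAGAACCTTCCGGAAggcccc
In Hspe1 3 overlapping matches formed a run of 18 bases that begins at position -89 from the start. Hspd1 runs the other way from the same stretch of chromosome 1, and 1 of its 2 listed windows holds the same bases. Hspb1 had 2 separate matches and the other 3 genes 1 each. The first 250 bases of the Hspa1a window and that of Hspa1b were identical at 247 positions. A match is a description of these letters only. The 9 genes were listed as HSF1 targets, so their share with the motif is no result of these data. Hspd1 and Hspe1, which share 1 stretch, count as 2 of the 7. Cryab, Hspa8, Hsp90aa1 and Hsp90ab1 of the list had no window.

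Hspa8, the constitutive cytosolic HSP70, is one of the 13 listed genes, as are Hsp90ab1 and Hspa4l. Hspa8 was at 15.12, 14.89, 15.04 and 15.09 in control. It differed by -0.02 ± 0.08 and -0.06 ± 0.08 (95% intervals -0.20 to 0.17 and -0.25 to 0.12). Hspa5, the HSP70 of the endoplasmic reticulum, differed by -0.16 and -0.10, and by -0.10 and -0.04 without control replicate 1. Hsp90ab1, the constitutive HSP90, was at 16.06, 16.02, 15.92 and 15.90 in control. It was at 15.89, 15.89, 15.95 and 15.77 in TrbE10 and at 15.85, 15.82, 15.87 and 15.78 in TrbE14. All TrbE14 arrays lay below the controls, by a narrow margin, with differences of -0.10 ± 0.07 and -0.15 ± 0.07 (adjusted p = 0.523 and 0.39). The exchange factor Hspa4l was at 10.58, 10.44, 10.42 and 10.40 in control. It was at 10.25, 10.48, 10.25 and 10.23 in TrbE10, where 3 arrays lay below the controls, and at 10.26, 10.27, 9.99 and 10.03 in TrbE14, where all did. It differed by -0.16 ± 0.09 and -0.32 ± 0.09 (adjusted p = 0.441 and 0.191). In TrbE14 Hspa4l had an exact permutation p of 0.0286, the value that any gene without overlap gets. Its paralogue Hspa4 differed by 0.15 ± 0.10 and 0.06 ± 0.10, the main probe of 3, and the other probes gave negative values.

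Nearly all mitochondrial members had negative differences. All 10 were negative in TrbE10, from -0.25 to -0.10 with a median of -0.17. In TrbE14 9 of 10 were, from -0.27 to 0.00 with a median of -0.17. Over all genes 54.8% and 55.9% were negative. Hspd1 and Hspe1 are also among the 13 heat-inducible genes, so that the 2 lists are not separate. None was called. Without control replicate 1 all 10 were negative in both mutants, with medians of -0.15 and -0.14, and leaving out any other array gave medians between -0.22 and -0.12. The mean of the 10 genes was 12.03 to 12.11 in control. It was 11.78 to 11.91 on 3 TrbE10 arrays and 12.04, inside the control range, on TrbE10 replicate 2. It was 11.87 to 11.99 in TrbE14, below every control.

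Hspe1, the lid of the mitochondrial chaperonin, was at 12.95, 12.84, 12.97 and 13.03 in control. It was at 12.54, 12.90, 12.81 and 12.83 in TrbE10 and at 12.67, 12.70, 12.70 and 12.64 in TrbE14. All TrbE14 arrays lay below the controls, and so did 3 of the TrbE10 arrays. The differences were -0.18 ± 0.09 (adjusted p = 0.345) and -0.27 ± 0.09 (adjusted p = 0.24). A second probe, shifted by 3 bases on the genome, gave -0.19 and -0.32, the latter with the lowest adjusted p of any member probe in TrbE14 (0.0992). With normexp background correction this gene was called in TrbE14 (lowest adjusted p = 0.0358). Hspd1, the barrel of the same chaperonin, differed by -0.21 ± 0.11 and -0.12 ± 0.11 (adjusted p = 0.38 and 0.639), and its groups overlapped. It differed by -0.16 and -0.07 without control replicate 1.

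Dnajc19, a subunit of the motor that draws proteins into the mitochondrial matrix, was at 11.30, 11.16, 11.14 and 11.14 in control. It was at 10.89, 11.21, 10.97 and 11.03 in TrbE10 and at 11.07, 11.11, 10.86 and 10.94 in TrbE14, and differed by -0.16 ± 0.09 and -0.19 ± 0.09. Its second probe gave 0.06 and 0.13 with all arrays, so that the probes disagreed in sign. On that probe control replicate 1 was the lowest control, at 7.74 against 7.97 to 8.11, which raises both differences. Its paralogue Dnajc15 had uniform controls, at 14.22, 14.23, 14.25 and 14.23, and was at 14.04, 14.08, 14.05 and 14.05 in TrbE14. In TrbE10 it was at 13.89, 14.28, 13.78 and 13.96, where replicate 2 lay above all controls and the other 3 arrays below. It differed by -0.25 ± 0.10 and -0.18 ± 0.10 (adjusted p = 0.234 and 0.447). Without TrbE10 replicate 2 the difference was -0.36, and Dnajc15 was the only member called (adjusted p = 0.0268). Hspa9, the HSP70 of the matrix, differed by -0.16 ± 0.08 and -0.04 ± 0.08, and its J protein Dnaja3 by -0.13 ± 0.08 and -0.16 ± 0.08.

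**Figure D3:**
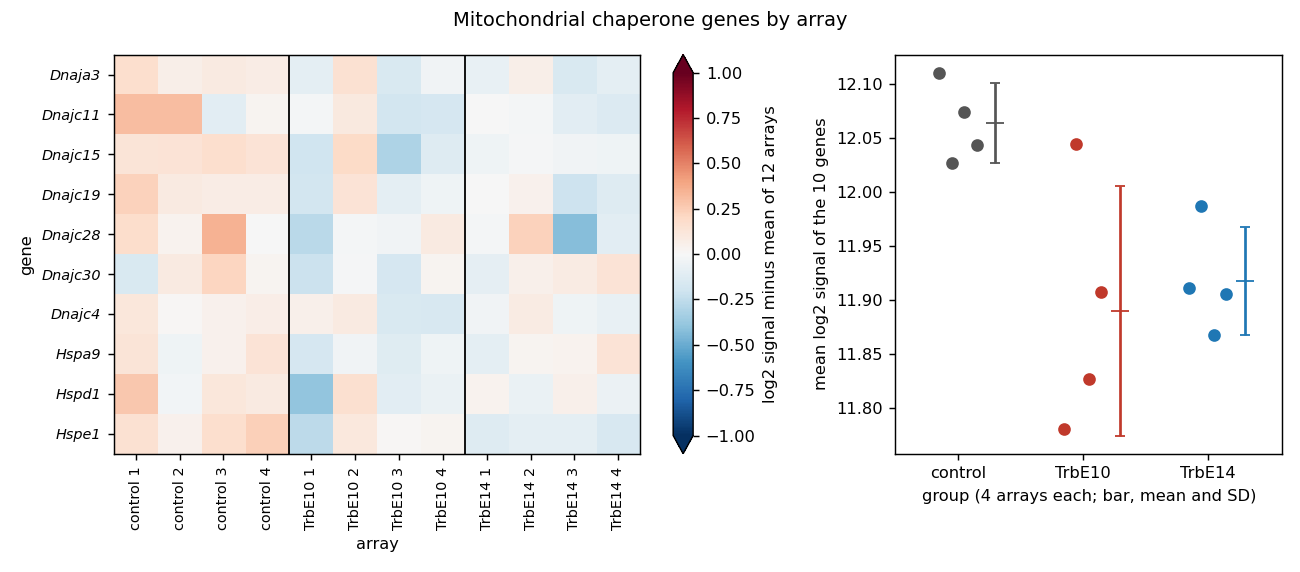
Left, log2 signal of the 10 mitochondrial members on each array as the difference from the gene's mean over 12 arrays; right, their mean log2 signal per array, with mean and SD of each group of 4. The controls sit at 12.03 to 12.11, TrbE14 at 11.87 to 11.99, and in TrbE10 only replicate 2 reaches the control range at 12.04.

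Dnajb5, a J protein enriched in muscle that binds the class II histone deacetylase HDAC4, had the lowest p of the members in TrbE10. It was at 12.77, 12.47, 12.28 and 12.37 in control. It was at 11.83, 12.15, 12.03 and 12.13 in TrbE10 and at 12.34, 12.19, 12.11 and 12.01 in TrbE14. The TrbE10 arrays all lay below the controls, and in TrbE14 1 array reached them. The differences were -0.44 ± 0.12 (adjusted p = 0.103, 0.739-fold of control) and -0.31 ± 0.12 (adjusted p = 0.306, 0.808-fold of control), and -0.34 and -0.21 without control replicate 1. Its second probe gave -0.34 and -0.47.

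Of the J proteins of the endoplasmic reticulum, Dnajb9, which hands unfolded clients to Hspa5, was at 10.82, 10.72, 10.66 and 10.71 in control. It was at 10.60, 10.58, 10.47 and 10.55 in TrbE10, below the controls, with a difference of -0.18 ± 0.08 (adjusted p = 0.306). In TrbE14 it differed by -0.03. Its second probe gave 0.08 and 0.14. Dnajb14, a membrane J protein, was at 10.84, 11.05, 10.74 and 10.83 in control and at 10.56, 10.60, 10.59 and 10.64 in TrbE14, and differed by -0.20 ± 0.09 and -0.26 ± 0.09 (adjusted p = 0.291 and 0.246). Its second probe gave -0.34 in TrbE10 and 0.00452 in TrbE14. Dnajc1, also of the membrane, was the member other than Hspb7 with a wholly higher group. Its controls were at 10.61, 10.64, 10.61 and 10.61 and its TrbE14 arrays at 10.90, 10.79, 10.71 and 10.73, with differences of 0.09 ± 0.07 and 0.17 ± 0.07 (adjusted p = 0.581 and 0.341). Dnajc12, which was not grouped with the endoplasmic reticulum, differed by -0.14 ± 0.07 and -0.12 ± 0.07.

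**Figure D4:**
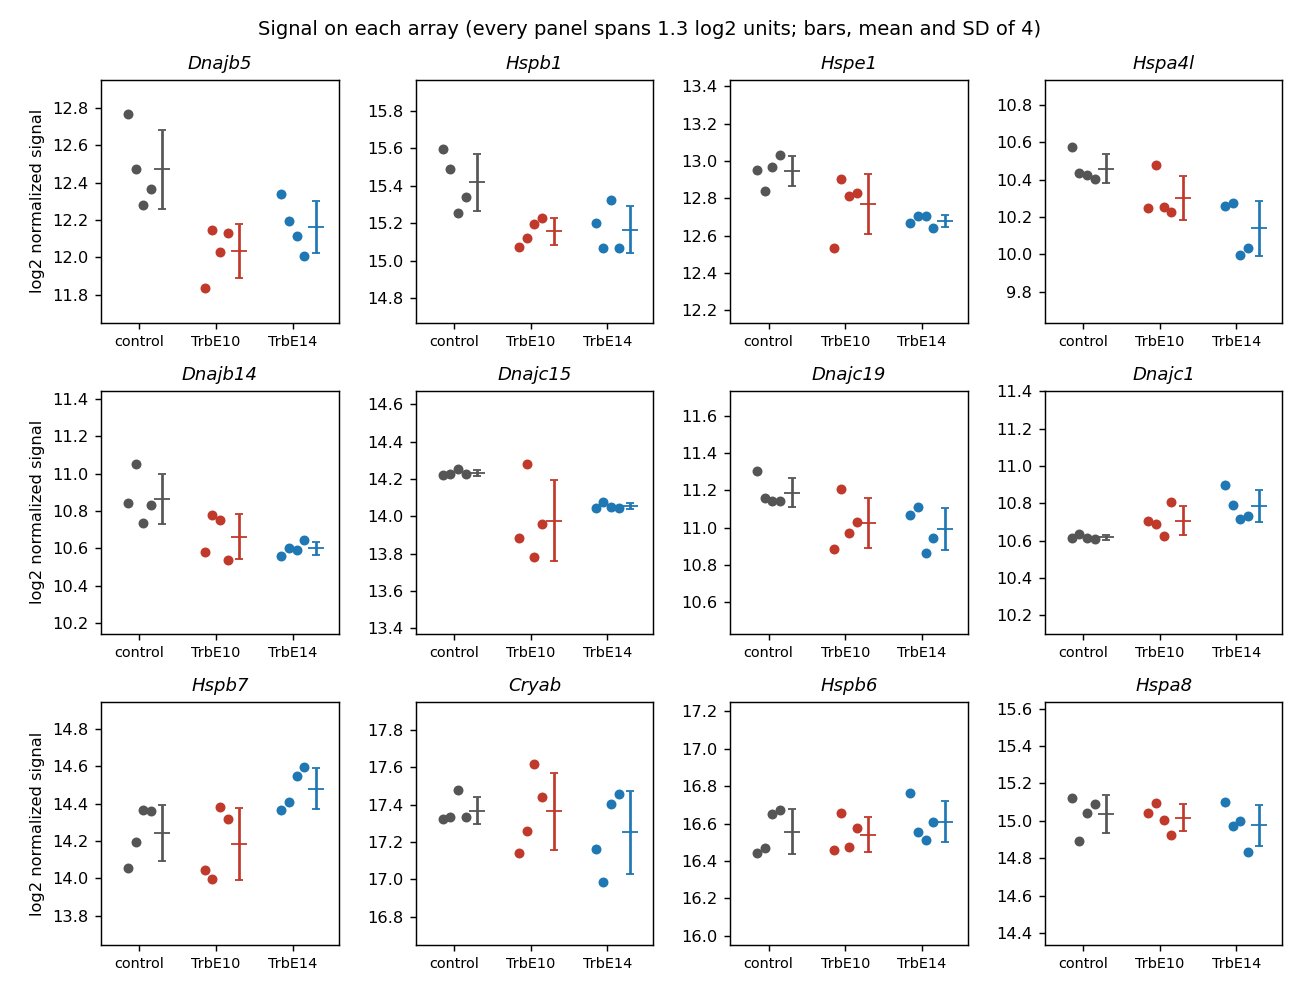
Log2 normalized signal of 12 member genes on each array, by group, with the mean and SD of 4 arrays beside the points; every panel spans the same range of log2 units. Hspe1, Hspa4l and Dnajc15 show all TrbE14 points below control, Hspb7 and Dnajc1 show them above, and Cryab, Hspb6 and Hspa8 overlap in all groups.

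Dnaja2, a cytosolic J protein, differed by 0.01 ± 0.10 and -0.03 ± 0.10, and Dnajc21, which acts in ribosome assembly, by 0.00 ± 0.08 and 0.14 ± 0.08. Dnajc21 was also the only member whose TrbE10 arrays all lay below the TrbE14 arrays (adjusted p = 0.915), which is 1.54% of members against 1.73% of all genes. Dnajc5, the cysteine string protein of secretory vesicles, differed by -0.18 ± 0.13 and 0.04 ± 0.13. At the other end, Dnajb8, known from testis, was dim, at 4.13 to 5.82 over the 12 arrays, and its differences of 0.48 ± 0.38 and 0.26 ± 0.38 carried wide intervals. Between the mutants the median difference of the members was 0.01, with 35 positive and 30 negative.

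Genes that act with these chaperones gave a like picture. Of 26 measured cochaperones 0 were called, and 20 were negative in TrbE10 and 18 in TrbE14. Hsf1 differed by -0.07 ± 0.11 and -0.03, Hsf2 by -0.18 and -0.23, and Bag3, the cochaperone of sarcomere turnover, by -0.12 and 0.03. Without control replicate 1 Bag3 differed by -0.05 and 0.09. Of 13 subunits of the cytosolic chaperonin and prefoldin 0 were called, with 10 and 11 negative. Of 22 genes of folding in the endoplasmic reticulum 0 were called, with 15 and 15 negative. Of 13 mitochondrial proteases and folding factors 0 were called, with 13 and 10 negative. Unc45b and Ppp5c were chosen after their values were seen, and held the most negative cochaperone difference in TrbE10 and in TrbE14. Unc45b, the myosin chaperone, differed by -0.36 and -0.22 (adjusted p = 0.168 and 0.444). Ppp5c, a phosphatase bound to HSP90, differed by -0.26 and -0.54 (adjusted p = 0.441 and 0.184). The largest positive differences among the 26 cochaperones were greater in size, at 0.52 in TrbE10 and 0.84 in TrbE14.

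Marker genes of other cell types differed in both directions. Of 11 macrophage markers 5 were called higher in TrbE10 and 1 in TrbE14, and their summed signal was 13.504 to 13.79 in control, 14.28 to 14.61 in TrbE10 and 14.16 to 14.26 in TrbE14. Of 10 fibroblast markers 1 was called higher in each mutant, with a summed signal of 16.17 to 16.33, 16.49 to 16.75 and 16.57 to 16.82. Of 10 endothelial markers 1 was called higher in TrbE10 and 0 in TrbE14. In each mutant 9 of 10 were positive, with medians of 0.21 and 0.25. Their summed signal was 15.19 to 15.53 in control, 15.51 to 15.62 in TrbE10 and 15.51 to 15.75 in TrbE14. Their mean log2 signal was 10.68 to 10.80, 10.87 to 11.03 and 10.99 to 11.13, so that both mutants lay above control. Of 4 adipocyte markers 0 were called, and all were negative, with medians of -1.31 and -0.41 and a summed signal of 9.997 to 11.2 in control, 6.47 to 10.7 in TrbE10 and 9.41 to 10.8 in TrbE14. Of 5 smooth muscle markers 0 were called, with medians of 0.01 and 0.75 and summed signals of 15.3 to 15.7, 15.4 to 16.0 and 15.5 to 16.2. In whole tissue, fewer cells of a type and less RNA per cell cannot be told apart, and the part of the cell makeup in the members' differences was not tested.

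By their pattern over the 12 arrays, the members most like Cryab were Dnajb4 (Pearson r = 0.56), Dnajc17 (0.51) and Dnajc16 (0.50). Those most like Hspb7 were Dnajc8 (0.75), Hspb9 (0.55) and Dnajc30 (0.54). Those most like Hspa1a were Dnaja1 (0.84), Dnajb5 (0.76) and Dnajc3 (0.74), and without control replicate 1 these values were 0.42, 0.42 and 0.31. These are descriptions, taken from the highest of 64 values, over arrays that share groups and normalization.

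The remaining 9 member names had no probe that was well above background on 3 of 4 arrays of any group. They are Dnajb3, Dnajb7, Dnajb13, Dnajc5b, Dnajc5g, Dnajc6, Dnajc22, Hspa12a and Hspbap1. Dnajb3 and Dnajc5b were well above background on 1 array each and the others on 0 of 12, and no difference is given for them. Hspb11, which carries the name of the small heat shock proteins but acts in transport along cilia, differed by 0.02 and -0.05.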

How the data were processed

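Left ventricular RNA of 12 mice, 4 per group, was hybridised to 12 one-colour Agilent arrays. The authors deposited the scanner output, whose processed signal, an intensity, was background-subtracted within the array on a linear scale (Agilent Feature Extraction 10.5.1.1), and a table of log2 values after their quantile normalization, used as an alternative. Signals were log2-transformed, spots marked as outliers were set to missing, control spots were removed, and limma 3.58.1 (R 4.3.3) brought the arrays to common quantiles. Replicate spots were averaged, and probes that exceeded background clearly on 3 or 4 arrays of some group were kept, so that a gene may pass through 1 group alone. The 75th percentile of the raw signal ranged from 195 to 250, 0 spots were saturated, and array correlations were 0.968 to 0.99 with 0 identical pairs. The number of arrays limits the precision.

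For 24593 probes limma estimated the 3 group means in one fit, with Benjamini-Hochberg adjustment over all probes. A gene counted as called if any of its probes reached an adjusted p under 0.05. Errors are standard errors of this fit. Single genes were also compared by exact two-sided permutation over the 70 label orders of 8 arrays. The method was tested on simulated data. Alternatives were the 75th percentile scaling, normexp (offset 50), other filters, the authors' values, fits with 2 groups, sex, Dbp or the replicate number, SAM, and leaving out each array.

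The members, the gene lists and the rule for named genes were chosen with earlier results of these data known. Named are Cryab, Hspb7 and Hspa1b, called members, for each mutant the 10 largest differences without overlap, the gene of highest signal per family, the 3 most and 3 least variable in control, and for each mutant the 2 with the smallest errors among those under 0.1; outside the members, called pathway genes, Hsf1, Hsf2, Bag3 and Nkx2-5. Other genes were named after their values were seen, among them Dnaja1, Dnajb4, Hsp90aa1, Hspa5, Hspb2, Hspb6, Hspb8 and Hspb11. Probe coordinates are those of the array files (mm9), and promoter sequences come from RefSeq (GRCm38.p6). Replicate numbers were not used as pairs.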

Additional observations from a re-analysis of the deposited data

Results flagged for a closer look

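Among 195 groups of 4 values (65 members in 3 groups), 14 held an array whose gap to its nearest neighbour took up a larger share of the group's range than the 95% critical value of Dixon's test, the share being given in brackets. Chance flags about 5% of such groups. In control, replicate 1 was the array set apart, on the high side, for Dnajb4 (0.841), Dnajc19 (0.912) and Dnajc21 (0.887). Replicate 3 was high for Cryab (0.903) and low for Dnajc24 (0.904), and replicate 4 was high for Hspb8 (0.977) and low for Dnajc16 (0.849). In TrbE10, replicate 2 was high for Hspa4l (0.892) and Hspb3 (0.952) and low for Dnajb11 (0.855). Replicate 1 was low for Hspa4 (0.849) and Hspb11 (0.844), and replicate 3 was high for Dnajc14 (0.865). In TrbE14, replicate 3 was low for Dnajb2 (0.867). The Cryab gap is one of 0.14 log2 units, from 17.34 to 17.48, and Hspa1a, whose control replicate 1 lay furthest from the others in log2 units, did not pass this limit.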

How the results depend on the processing

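The count of 0 members called held under all alternatives with 2 exceptions: 1 gene (Hspe1) in TrbE14 with normexp, and 1 (Dnajc15) in TrbE10 without TrbE10 replicate 2, so that the counts ranged from 0 to 1 over the arrays left out. With 75th percentile scaling the members' median was -0.16 in TrbE10 and -0.12 in TrbE14, where the median of all genes was -0.08 and -0.06. Over the arrays left out it ranged from -0.12 to -0.09 in TrbE10, from -0.09 to -0.04 in TrbE14, and from -0.0117 to 0.0157 between the mutants, where its sign turned. Arrays of the same replicate number had correlated deviations of -0.24 to 0.08 between mutant and control, and of 0.37, 0.31, -0.00849 and 0.48 between the mutants, where 6 of 8 arrays correlated best with their own number against 0 of 8 for each mutant with control. Since not every pair passed 0.1, the numbers were not used as pairs. With the replicate block 0 members were called in each comparison (294, 134 and 1 of all genes, against 387, 137 and 0), with medians of -0.10, -0.07 and 0.01. Signs also turned in differences of genes named by the rule, none of them called and most of them small. The exception in size was Hspa1a in TrbE14 (-0.46). Members outside the rule were not followed singly over all settings. Some of them turned sign without control replicate 1, such as Dnajc3 in TrbE14, from -0.089 to 0.092. Under the authors' values TrbE10 gave 0.00144 for Cryab and 0.00265 for Hspa8. With 75th percentile scaling TrbE14 gave -0.026 for Hspa4, -0.0318 for Dnajc5 and -0.0551 for Bag3, and TrbE10 -0.0498 for Dnaja2. With sex as a covariate TrbE14 gave -0.0247 for Hspa4 and -0.076 for Bag3, and TrbE10 -0.00135 for Dnaja2. Normexp gave -0.00572 for Bag3 in TrbE14. Over the arrays left out, TrbE10 ranged from -0.0881 to 0.0702 for Cryab, -0.125 to 0.00361 for Hspb7, -0.0674 to 0.0121 for Hspa8, -0.0319 to 0.0714 for Dnaja2 and -0.0233 to 0.049 for Dnajc21. TrbE14 ranged from -0.0672 to 0.0216 for Dnajb9, -0.0606 to 0.105 for Dnajc5, -0.701 to 0.0682 for Hspa1a, -0.0906 to 0.0449 for Dnaja2, -0.117 to 0.0333 for Hsf1 and -0.0349 to 0.0914 for Bag3. The call of Nkx2-5 in TrbE10 was lost without a filter (adjusted p = 0.105), with 2 groups (0.0676) and on leaving out 10 of the 12 arrays in turn. The cause of these changes was not tested.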
